A study of Bos taurus with 60 samples.

Results

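The descending colon is the last part of the colon before the rectum, and its miRNAs were compared here between cattle that shed *E. coli* O157 in very high numbers (super-shedders, SS) and cattle whose feces were negative for it (non-shedders, NS). The animals were feedlot steers of British × Continental breeding, assigned to a phenotype by culture of their feces, with no inoculation or treatment described, and the tissue was taken after slaughter, some days after that culture. Small RNA of the whole biopsy, with epithelium, muscle, blood and immune cells together, was sequenced from 6 intestinal regions of 10 steers, which gave 60 libraries. The descending colon had 10 of them, 5 from NS steers (NS108, NS152, NS165, NS242 and NS745) and 5 from SS steers (SS274, SS287, SS294, SS299 and SS310), so that each library is 1 steer. According to the study, only SS310 was still at the super-shedder level by slaughter. The other SS steers were then positive but below that level, and the NS steers were negative. Of 608 bovine miRNAs listed, 331 had a CPM (count scaled to the total of the library) above 1 in at least 3 libraries of NS or of SS, and these 331 were compared. Of the others, 56 had no count in any of the 10 libraries.

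A miRNA is a short RNA that guides a silencing complex to mRNAs, mainly through the bases of its seed near the 5′ end, and lowers the translation and the stability of those mRNAs. In the gut wall, miR-143 and miR-145 are products of the smooth muscle, miR-192, miR-194, miR-215 and the miR-200 family are made by the epithelium, miR-375 by enteroendocrine and other secretory cells, and miR-144, miR-451 and miR-486 by red blood cells. The miR-196 genes lie within the HOX clusters and, like the genes around them, are used in the posterior part of the body, so that they separate hindgut from foregut tissue. In bulk tissue, fewer cells of a type and less of a miRNA per cell cannot be told apart.

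The 10 libraries held 966622 to 19346766 miRNA counts, with NS108 (19346766) and SS310 (13942283) far deeper than the others, which had at most 5669901. A count of 0 allows up to 3 counts, which is 0.155 CPM in NS108 and 3.10 CPM in NS242. On average 325.8 ± 35.4 miRNAs (SD, n = 5) were above 1 CPM in NS and 314 ± 24.1 (SD, n = 5) in SS, a difference within the spread of the steers (exact two-sided permutation test, p = 0.611, adjusted p = 0.784 over 5 library measures, smallest p possible 0.00794). The total counts (exact permutation p = 0.548) and the share of miR-143 (p = 0.627) did not separate the phenotypes either.

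The tissue was first checked against its markers. The smooth muscle product miR-143 was the most abundant miRNA in all 10 libraries. It took 52.2 ± 22.8% of the counts in NS and 46.0 ± 14.9% in SS (SD, n = 5 each), with NS242 lowest at 11.7% and SS274 highest at 69.2%. The next were miR-10b, a product of the HOX clusters, with 68678 ± 27442 CPM in NS and 77969 ± 84479 CPM in SS, and miR-192 with 53848 ± 21238 CPM in NS and 82888 ± 85071 CPM in SS. The other miRNAs among the 10 most abundant were miR-10a, miR-26a, miR-26c, miR-27b, miR-148a, miR-215 and miR-22-3p, with fitted log2 fold changes of SS over NS between -0.25 and 0.32 (miR-215 at -1.35 without SS287 and SS294). MiR-26a and miR-26c had nearly the same CPM in each library (24218 and 22962 in NS108) and may share reads, since the sources used here give no rule for reads that fit several family members.

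The libraries SS287, SS294, SS299 and NS242 went against their label or stood apart from the others, and the fold changes that turn on them are also given without them. The fits without a pair of these libraries were chosen after seeing the data. In SS287 and SS294, the hindgut marker miR-196b was at 1.40 CPM and at 0, while the other 8 descending colon libraries had 176 to 731 CPM. In the cecum and spiral colon the median was 587 CPM and 16 of 20 libraries were above 100 CPM, whereas in the 30 libraries of the small intestine the median was 1.40 CPM and 24 were under 10 CPM. The related miR-196a was at 0 in SS287, 3.55 CPM in SS294 and 5.99 CPM in SS299, against 49.1 to 518 CPM in the other 7. In SS299 it was low in the 5 other regions as well (0 to 12.0 CPM, median 1.40), whereas it reached 241 CPM in those of SS287 and 363 CPM in those of SS294. In SS287 and SS294, therefore, miR-196b was at the level of most small intestine libraries. MiR-215 had a median of 23884 CPM in the small intestine, 1166 CPM in the cecum, 5375 CPM in the spiral colon (highest 29401 CPM) and 11762 CPM in the descending colon. It was highest in SS287, at 52347 CPM, but SS294, at 22079 CPM, was below NS242, at 33809 CPM, so that it did not set SS294 apart. Whether the tissue of these libraries came from another site was not tested, and single libraries of other regions also broke the pattern, with miR-196b under 10 CPM in 4 of the 20 libraries of the cecum and spiral colon and above 100 CPM in 5 of the 30 of the small intestine.

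The SS299 library was almost without epithelial miRNAs. The 8 epithelial markers summed to 2803 CPM in it against 17292 to 284720 CPM in the other 9 libraries. MiR-200a was at 2.24 CPM (129 to 2537 elsewhere), miR-429 at 2.99 CPM (122 to 2008), miR-141 at 18.0 CPM (455 to 4004) and miR-375 at 40.4 CPM (1329.5 to 10796). In the 5 other regions of this steer these miRNAs were also as low as 1.85 CPM for miR-200a (median 74.9), 2.18 for miR-429 (median 43.3), 11.9 for miR-141 (median 236) and 25.5 for miR-375 (median 99.3), and reached 2109, 1377, 8950 and 10893 CPM, so that low values were not particular to its descending colon. The muscle miRNA miR-490 had no count in it, which allows up to 2.24 CPM. The 3 erythrocyte markers summed to 14942 CPM in SS299 and to 131 to 1438 CPM in the others. NS242, the library with the fewest counts, had the least smooth muscle signal, since the 6 smooth muscle markers summed to 117480 CPM against 332800 to 695500 CPM, and it held the highest CPM of 193 of the 331 miRNAs.

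**Figure D1:**
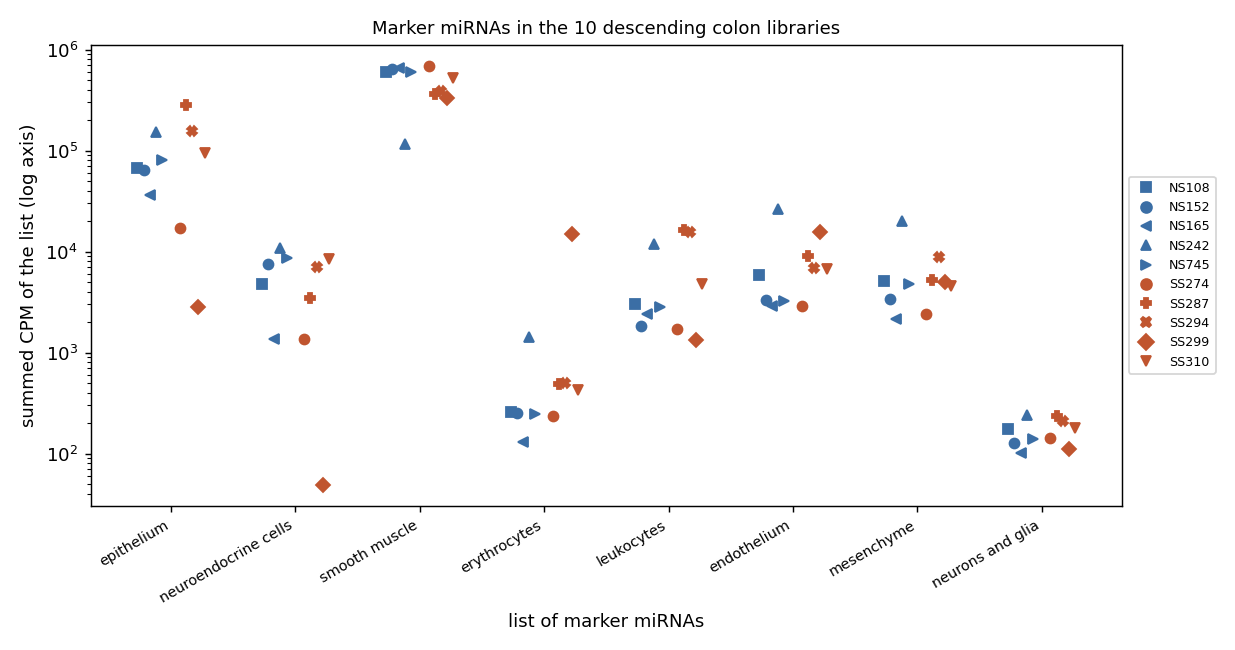
Summed CPM (log axis) of the miRNAs on 8 lists of cell type markers in each descending colon library, NS in blue and SS in orange. SS299 is lowest for epithelium (2803 CPM) and highest for erythrocytes (14942 CPM), and NS242 is lowest for smooth muscle (117480 CPM).

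No miRNA was called differentially expressed (DE) between SS and NS in the fits run here on the 10 libraries. The study, with the exact test of edgeR at an FDR of 10%, lists miR-378b as lower in SS in the descending colon, with an FDR just under that cut-off. At the FDR of 10% the quasi-likelihood test of edgeR, which is not the test of the study, called 0 of 331 miRNAs (0% of those tested). The smallest adjusted p of this test was 0.992. At an unadjusted p under 0.05 there were 10 miRNAs (3.02% of those tested), 8 with higher fitted levels in SS (2.42%) and 2 with lower ones (0.604%). By DESeq2, by limma-voom and by edgeR's exact test 0 miRNAs were called as well, and 15 (4.53%), 3 (0.906%) and 18 (5.44%) had an unadjusted p under 0.05. No miRNA had CPM values that did not overlap between the 5 NS and the 5 SS steers (0 of 331, 0%). Fitted log2 fold changes were above 0 for 174 miRNAs (52.6%) and below 0 for 157 (47.4%), with a median of 0.04, and were beyond 1 in size for 34 (10.3%), 21 higher in SS (6.34%) and 13 lower (3.93%). The median size of the fitted log2 fold change was 0.29, and the median standard error was 0.47.

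**Figure D2:**
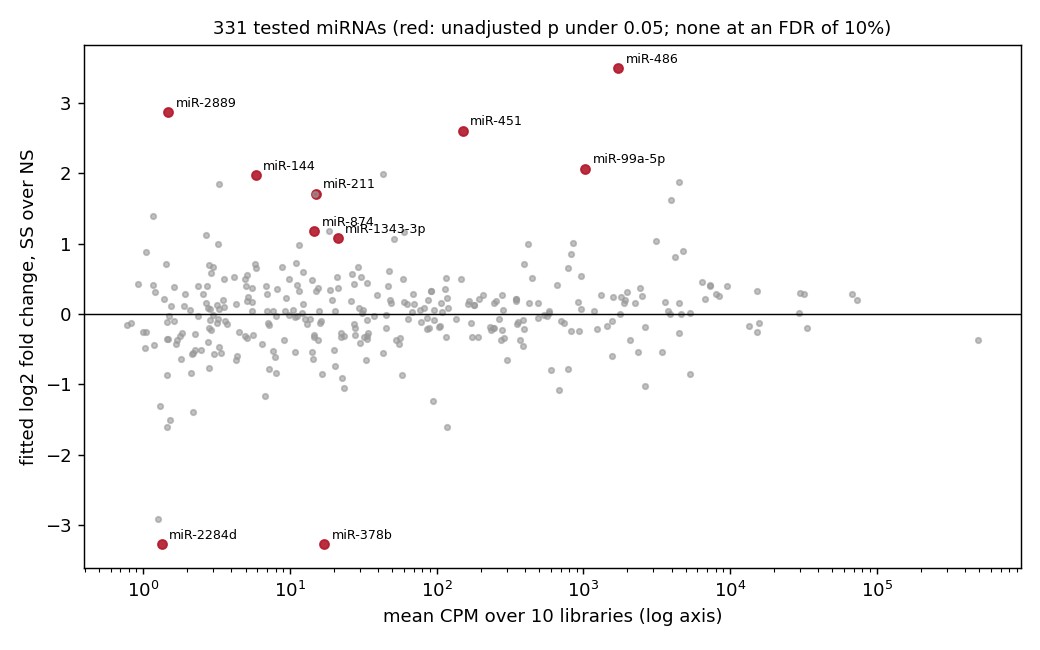
Fitted log2 fold change of SS over NS against the mean CPM over the 10 libraries (log axis), 1 point for each of 331 tested miRNAs. The 10 miRNAs in red had an unadjusted p under 0.05 (8 above the line of no change, 2 below), and none had an adjusted p under 10%.

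The spread between steers was estimated highest in the descending colon. The biological coefficient of variation, the spread between steers of a phenotype that edgeR estimates over all tested miRNAs, was 0.598 in the descending colon, 0.401 in the spiral colon, 0.461 in the cecum and 0.472 in the duodenum, and it was 0.543 and 0.560 in the distal and proximal jejunum. The value was 0.525 without SS299, below those of both parts of the jejunum, and 0.499 without NS242 and SS299, a choice made after seeing the data. In the other regions the same fit called 3 miRNAs in the spiral colon, 2 in the distal jejunum and 1 each in the cecum, duodenum and proximal jejunum.

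The lowest unadjusted p belonged to miR-378b, a member of the miR-378 family, whose best-known member lies in an intron of PPARGC1B, the gene of a coactivator of metabolic genes, in mammals. In NS it was at 0.620 CPM in NS108, 38.8 in NS152, 31.7 in NS165, 80.7 in NS242 and 3.48 in NS745. In SS it was at 1.81 CPM in SS274, 2.81 in SS287, 4.26 in SS294, 5.99 in SS299 and 1.43 in SS310. NS152, NS165 and NS242 were therefore above all SS steers, NS745 was among the SS steers, and NS108 was below all of them. The fitted log2 fold change was -3.28 (SE 1.01, unadjusted p = 0.00731, adjusted p = 0.992 by the quasi-likelihood test of edgeR). The family as a whole did not share this pattern, since miR-378, miR-378c and miR-378d had log2 fold changes of 0.17, 0.33 and 0.18.

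The NS108 value of miR-378b differed from the other tissues of the same steer. In the 5 other regions of NS108, miR-378b was between 46.5 and 125 CPM, and in the descending colon it had 12 counts among 19346766. In NS152, NS165 and NS242 the other regions also held high levels, and in NS745 and all 5 SS steers they were low, so that only NS108 left its own range this far. Without NS108 the log2 fold change was -3.60 (unadjusted p = 0.000577, adjusted p = 0.186 by the quasi-likelihood test), and the exact test of edgeR, chosen for this setting after seeing the data, then called miR-378b (log2 fold change -3.58, adjusted p = 0.00178) and miR-2284d (-3.62, adjusted p = 0.0308).

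The same contrast in the other regions of the same steers gave log2 fold changes of miR-378b of -3.95 in the spiral colon (adjusted p = 0.0116), -3.88 for cecum (0.0542), -3.77 for distal jejunum (0.0272), -4.39 for proximal jejunum (0.0230) and -4.30 for duodenum (0.0226), each by the quasi-likelihood test of edgeR. These regions share their steers with the descending colon and are not separate evidence. The difference in the descending colon was smaller by 0.85 on the log2 scale than the mean of the other 5 regions (SE 0.61, unadjusted p = 0.167, adjusted p = 0.985, steer as a block), so it was not shown to differ from them.

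**Figure D3:**
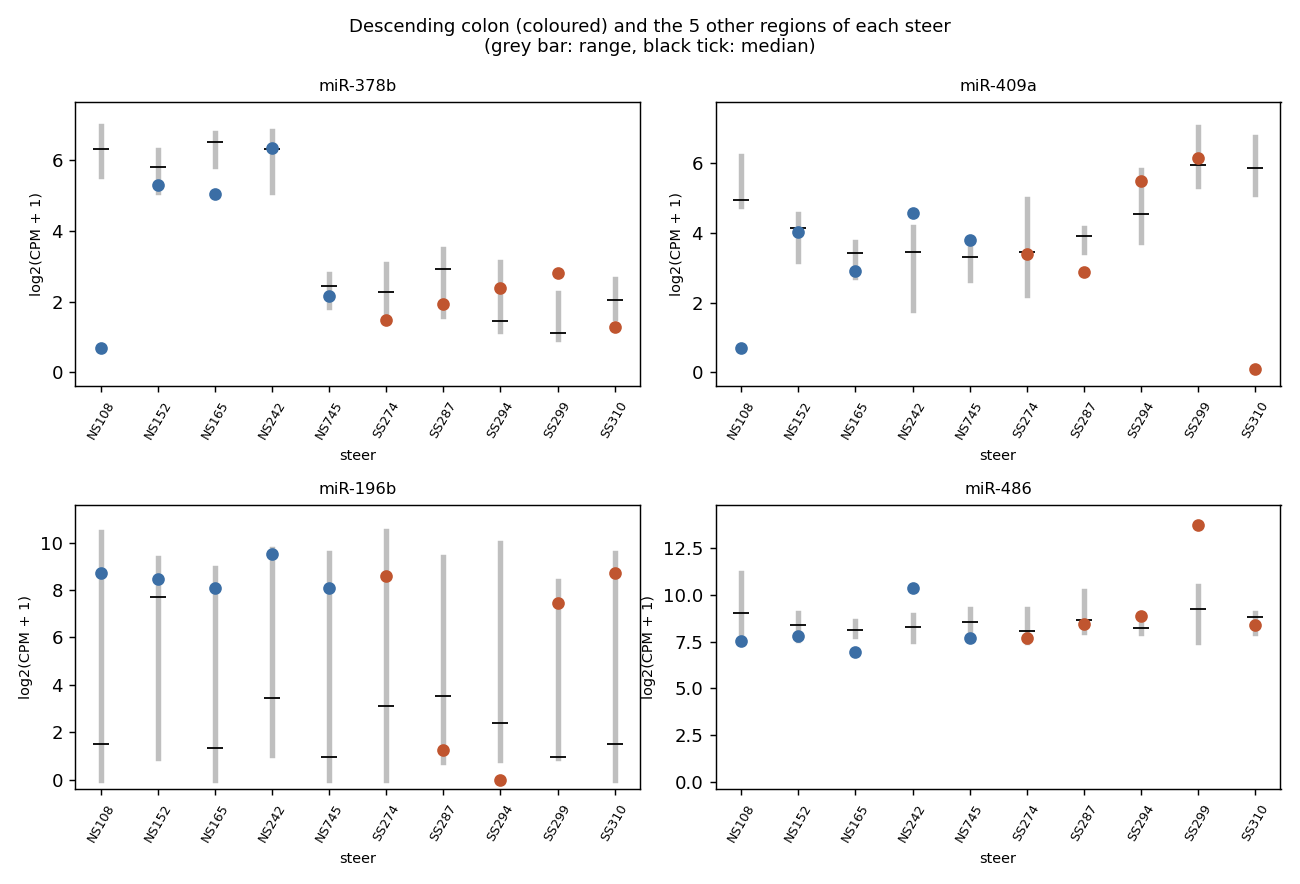
log2(CPM + 1) of 4 miRNAs in the descending colon of each steer (coloured points, NS blue and SS orange) beside the range (grey bar) and median (black tick) of the 5 other regions of that steer. For miR-378b NS108 lies far below its own range of 46.5 to 125 CPM, for miR-409a both NS108 and SS310 do, for miR-196b SS287 and SS294 are near 0, and for miR-486 SS299 lies above its range.

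MiR-2284d and miR-2284j, of the large bovine family of miR-2284 and miR-2285, followed a pattern like that of miR-378b at levels close to the detection limit. MiR-2284d had 3, 6, 10, 9 and 1 counts in NS108, NS152, NS165, NS242 and NS745, and 1, 0, 0, 0 and 3 counts in SS274, SS287, SS294, SS299 and SS310. Its mean was 2.60 ± 3.81 CPM in NS and 0.0883 ± 0.121 CPM in SS (SD, n = 5 each), and its fitted log2 fold change was -3.28 (SE 1.07, unadjusted p = 0.0101), a value that depends on the prior count at such levels. MiR-2284j had 2, 14, 13, 5 and 1 counts in NS and 3, 1, 0, 0 and 0 in SS, with a log2 fold change of -2.91 (SE 1.34, unadjusted p = 0.0513). Both miR-2284d and miR-2284j passed the CPM minimum through the NS libraries only, which favours a difference in that direction. As with miR-378b, NS108 was low against its own other regions, which held 2.22 to 14.9 CPM of miR-2284d and 4.43 to 7.85 CPM of miR-2284j, while its descending colon had 0.155 and 0.103 CPM. In the family, 16 of 48 listed members were tested, of which 10 had log2 fold changes above 0 and 6 below, with a median of 0.16 beside 0.04 over all tested miRNAs, and -0.15 without SS287. At the other end stood miR-2285k, at 22.0 to 40.3 CPM in NS and at 14.5, 93.3, 198, 40.4 and 29.0 CPM in SS274, SS287, SS294, SS299 and SS310. Only SS287 and SS294 were beyond the NS range on the high side by a wide margin, and the log2 fold change was 1.07 (SE 0.49, unadjusted p = 0.0520), or 0.49 without SS294 and 0.11 without SS287 and SS294.

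**Figure D4:**
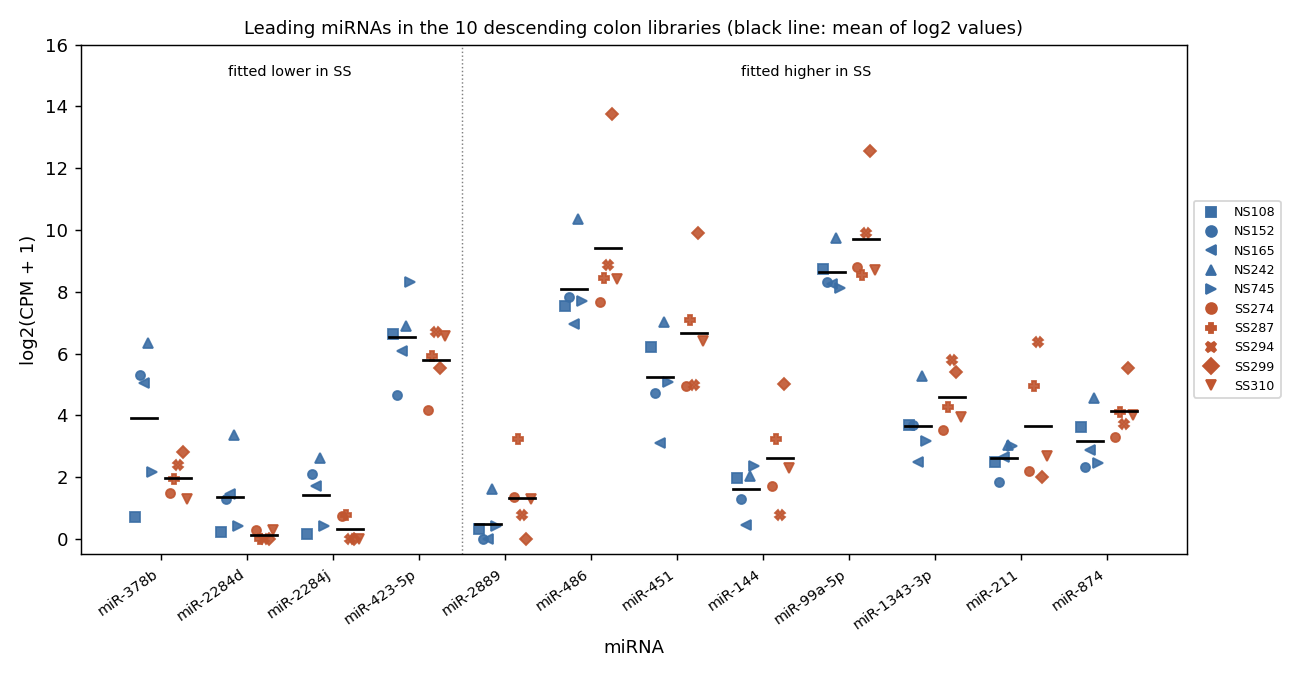
log2(CPM + 1) of 12 leading miRNAs in each descending colon library, NS in blue and SS in orange, with a marker for each steer and a black line at the mean of the log2 values. NS and SS overlap for every miRNA shown. The SS means of miR-486, miR-451, miR-144 and miR-99a-5p are set by SS299, and that of miR-211 by SS287 and SS294.

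The 3 erythrocyte miRNAs all had an unadjusted p under 0.05, and SS299 was the highest library for each. MiR-486 was at 184, 225, 123, 1306 and 209 CPM in NS108, NS152, NS165, NS242 and NS745. In SS it was at 203 CPM in SS274, 346 in SS287, 466 in SS294, 13950 in SS299 and 340 in SS310. Only SS299 was above the NS range. MiR-451, which is matured without Dicer, was at 7.58 to 129 CPM in NS and at 30.1, 133, 30.6, 961 and 82.9 CPM in the SS steers in the same order. MiR-144, transcribed together with miR-451, was at 0.353 to 4.18 CPM in NS and reached 31.4 CPM in SS299 and 8.42 CPM in SS287, the other 3 SS steers being between 0.711 and 3.87 CPM. The log2 fold changes were 3.49 ± 1.22, 2.61 ± 0.97 and 1.97 ± 0.89 (± SE), with unadjusted p of 0.0145, 0.0201 and 0.0480 by the quasi-likelihood test. Without SS299 they were 0.06, 0.51 and 0.58, with unadjusted p of 0.850, 0.338 and 0.395. In SS299 the epithelial markers were at their lowest, as given above, and the part of tissue makeup in these values was not tested.

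These 3 miRNAs also led the comparison of the descending colon with the other regions. Over 60 libraries with the steer as a block, the SS minus NS difference of the descending colon exceeded the mean of the other 5 regions by 2.38 ± 0.73 for miR-451, 2.10 ± 0.73 for miR-144 and 2.06 ± 0.69 for miR-486 (± SE, log2 scale). Their unadjusted p were 0.00220, 0.00608 and 0.00434, and each adjusted p was 0.671 by the quasi-likelihood test of edgeR. Without SS299 the differences were 0.93, 0.89 and 0.12, with unadjusted p of 0.108, 0.142 and 0.776. The fit called 0 of 331 miRNAs (0%), with 7 (2.11%) at an unadjusted p under 0.05. The next were miR-6123 (difference 0.99) and miR-183, known from sensory organs (-1.64). In the spiral colon, the contrast of miR-451 alone was -1.79 (adjusted p = 0.0859 by the quasi-likelihood test of edgeR), the opposite sign to that in the descending colon.

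The family of miR-99, miR-100 and miR-125, whose members are transcribed in clusters with let-7 genes, had higher fitted levels in SS for all 5 of 5 tested members, with a median log2 fold change of 1.62 beside 0.04 over all tested miRNAs. MiR-99a-5p was the member with an unadjusted p under 0.05. It was at 426, 315, 304, 860 and 280 CPM in NS108, NS152, NS165, NS242 and NS745, and at 446, 369, 946, 5998 and 411 CPM in SS274, SS287, SS294, SS299 and SS310. SS299 was far above every other library, SS294 was slightly above NS242, and the other 3 SS steers lay within the NS range. The 5 other regions of SS299 held 878 to 8491 CPM (median 3064), so that a high level was not particular to its descending colon. The other regions of SS310 and NS108 held 586 to 2271 and 620 to 2081 CPM, above the descending colon of each. The log2 fold change of miR-99a-5p was 2.07 (SE 0.81, unadjusted p = 0.0250), and 0.33 without SS299. MiR-99b was likewise highest in SS299 (23229 CPM) and SS294 (6676 CPM), but lowest in SS310 (730 CPM) and NS108 (750 CPM), with a log2 fold change of 1.88 (unadjusted p = 0.0520), or 0.55 without SS299. Both low values were far below the other regions of the same steers, which held 4645 to 8090 CPM in SS310 and 4810 to 8730 CPM in NS108. In SS299 the other regions held 5155 to 22901 CPM (median 18557). MiR-100 was at 808 to 2552 CPM in NS, and at 2983, 988, 5409, 20116 and 881 CPM in the SS steers (log2 fold change 1.62, unadjusted p = 0.0909, or 0.31 without SS299). Its levels in the other regions were 3846 to 6294.5 CPM in NS108 and 5410.5 to 13414 CPM in SS310, again above their descending colon. In SS299 they were 4394 to 38256 CPM. Over the family, 0 of 5 members had an unadjusted p under 0.05 without SS299, with a median of 0.37, and also 0 of 5 without NS242 or without NS745. In contrast, 5 of 5 did without SS310 (median 1.85), 4 of 5 without SS287 (median 1.85) and 4 of 5 without SS287 and SS294 (median 2.09). Over all tested miRNAs, 15 of 326, 9 of 326 and 10 of 324 were higher in SS at that level in the same settings, and 14, 2 and 2 were lower. In the other regions miR-99a-5p had log2 fold changes from 0.46 in the spiral colon to 3.55 in the proximal jejunum, and the descending colon did not differ from their mean (difference -0.18, SE 0.59, unadjusted p = 0.755).

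**Figure D5:**
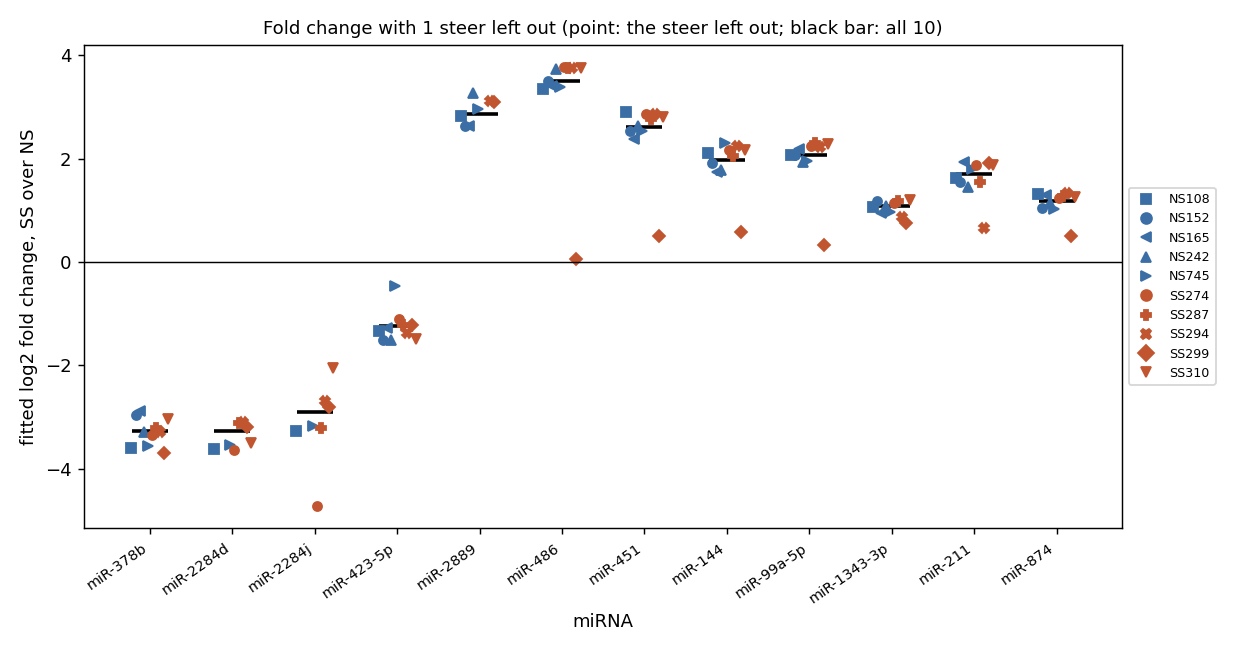
Fitted log2 fold change of SS over NS for 12 miRNAs with each steer left out in turn (points, drawn with the marker of the steer left out) beside the value from all 10 (black bars). A steer has no point where the miRNA then no longer passed the CPM minimum. Leaving out SS299 brings miR-486 from 3.49 to 0.06 and miR-99a-5p from 2.07 to 0.33, whereas miR-378b stays between -3.69 and -2.88.

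MiR-211, which shares its seed with miR-204, was highest in the pair of SS libraries in which miR-196b was near 0. In NS it was at 4.65, 2.62, 5.29, 7.24 and 6.97 CPM, and in SS at 3.62 in SS274, 30.2 in SS287, 81.0 in SS294, 2.99 in SS299 and 5.45 in SS310. SS274, SS299 and SS310 were within the NS range. The 5 other regions of SS287 held 24.7 to 44.5 CPM, a range that includes its descending colon, and those of SS294 held 1.86 to 42.7 CPM. Such levels also occurred in other regions of other steers, up to 102 CPM in NS242 and 87.6 CPM in SS274. The log2 fold change was 1.71 (SE 0.75, unadjusted p = 0.0432), and it was -0.23 without SS287 and SS294. Its partner miR-204 had a log2 fold change of 0.27 (SE 0.54). The 6 leukocyte miRNAs, miR-142-3p, miR-142-5p, miR-146a, miR-150, miR-155 and miR-223, all had log2 fold changes above 0, with a median of 0.90 and 0 of 6 at an unadjusted p under 0.05. Their sum was 16410 CPM in SS287, 15556 in SS294 and 11970 in NS242, against 1319 to 4802 CPM in the other 7 libraries. Without SS287 and SS294, 5 of the 6 were below 0 and the median was -0.42. Without SS299, all 6 were above 0 with 3 at an unadjusted p under 0.05 (median 1.10), and without NS242 and SS299 there were 4 (median 1.23). Over all tested miRNAs, 6 of 327 and 8 of 312 were higher in SS at that level in the same settings. Under library size alone in place of TMM normalization, 5 of the 6 were above 0.

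The remaining miRNAs at an unadjusted p under 0.05 were of low or moderate level. MiR-2889 had 5, 0, 0, 2 and 1 counts in NS108, NS152, NS165, NS242 and NS745 and 7, 12, 1, 0 and 20 counts in SS274, SS287, SS294, SS299 and SS310, which is 0 to 2.07 CPM in NS and 0 to 8.42 CPM in SS. The log2 fold change was 2.87 (SE 0.96, unadjusted p = 0.0118), and only SS287 was above the NS range. MiR-2889 passed the CPM minimum through the SS libraries only, which favours a difference in that direction. Without SS274, SS287 or SS310 it was below the CPM minimum and could not be fitted. MiR-1343-3p was at 4.59 to 37.2 CPM in NS and at 10.6, 18.2, 54.7, 41.1 and 14.6 CPM in SS274, SS287, SS294, SS299 and SS310 (log2 fold change 1.08, SE 0.44, unadjusted p = 0.0304). The log2 fold change was 0.76 without SS299 (unadjusted p = 0.0962) and 0.86 without SS294 (unadjusted p = 0.0786). Here SS294 and SS299 were above the NS range, and the highest NS value after that of NS242 was 11.9 CPM. MiR-874 was at 4.04 to 22.8 CPM in NS and at 8.82, 16.1, 12.1, 45.6 and 15.2 CPM in SS (log2 fold change 1.18, SE 0.52, unadjusted p = 0.0436), with SS299 alone above the NS range and a log2 fold change of 0.50 without it.

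On the side of lower fitted levels in SS, miR-423-5p was at 98.2, 24.5, 66.5, 118 and 321 CPM in NS and at 17.0, 59.6, 102, 44.9 and 94.1 CPM in SS (log2 fold change -1.24, SE 0.58, unadjusted p = 0.0556). The highest value was that of NS745, and without that steer the log2 fold change was -0.47. MiR-592 ranged from 0 to 5.23 CPM in NS and from 0 to 1.42 CPM in SS (log2 fold change -1.61, unadjusted p = 0.0813), and miR-6526 from 0.348 to 3.10 CPM in NS and from 0 to 1.86 CPM in SS (log2 fold change -1.31, unadjusted p = 0.118). Both miR-592 and miR-6526 passed the CPM minimum through the NS libraries only, which favours a difference in that direction.

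Several of the other lowest p values belonged to the imprinted DLK1-DIO3 cluster, a large group of miRNAs expressed from the maternal chromosome. Of 52 listed members 34 were tested, 28 with log2 fold changes below 0 and 6 above, and their median was -0.38 beside 0.04 over all tested miRNAs. None of the 34 had an unadjusted p under 0.05. MiR-543 was at 0.529 to 7.24 CPM in NS and at 0 in SS274, SS287 and SS299, 0.711 in SS294 and 1.79 CPM in SS310 (log2 fold change -1.51, SE 0.75, unadjusted p = 0.0666). It passed the CPM minimum through the NS libraries only, which favours a difference in that direction. MiR-369-3p (-0.74), miR-154c (-0.65) and miR-380-3p (-0.55) had unadjusted p of 0.0847, 0.0934 and 0.117, with NS242 the highest library for each of them. The summed level of the cluster was 2986 to 12522 CPM in NS and 2313 to 8664 CPM in SS, and NS242 was again the highest. Without SS310 the median was -0.70 and 5 of 34 had an unadjusted p under 0.05, and without SS287 and SS294 it was -0.14 with 25 of 34 below 0. Over all 326 miRNAs tested without SS310, 14 were lower in SS at that level and 15 higher. MiR-409a, of the same cluster, went the other way (log2 fold change 1.18, SE 1.15, unadjusted p = 0.325). It was at 0.620 CPM in NS108 and 0.0717 CPM in SS310, where their other regions held 26.0 to 72.0 and 33.4 to 106 CPM, and at 6.31 to 68.8 CPM in the other 8 libraries.

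SS310 and NS108, the deepest libraries, lacked or held further miRNAs unlike the other 8. In SS310, miR-3604 had 2 counts, or 0.143 CPM, against 592 to 5997 CPM in the other 9 libraries and 890 to 1480.5 CPM in the other regions of that steer. Such a near absence also occurred outside the descending colon. The lowest other region held 0.634 CPM in NS745 (median 1683) and 0.800 CPM in NS165 (median 1043). MiR-199a-3p was at 278 CPM in SS310 against 890 to 8829 CPM elsewhere. MiR-2904 (20.5 CPM), miR-2419-5p (54.7 CPM), miR-147 (52.2 CPM) and miR-205 (16.7 CPM) were high in SS310 against the median of the others, but NS242 was higher still for each. In NS108, miR-145 was at 11981 CPM against 444 to 4088 CPM, and miR-345-5p and miR-193a-3p were at 22.9 and 53.4 CPM against 2.24 to 10.5 and 5.65 to 37.4 CPM. MiR-146b was lowest in NS108, at 19.9 CPM against 56.9 to 411 CPM. MiR-1271, which shares its seed with miR-96, was low in both, at 3.46 CPM in NS108 and 4.88 CPM in SS310, where their other regions held 27.1 to 93.4 and 54.6 to 262 CPM, and it was at 153 CPM in SS294 and 173 CPM in SS299 (log2 fold change 1.99, SE 0.96, unadjusted p = 0.0601, or 1.06 without SS299). Without SS310, 29 of 326 miRNAs had an unadjusted p under 0.05 rather than 10 of 331, none of them with an adjusted p under 10%, and without NS108 and SS310 there were 19 of 313.

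Leaving out single libraries also gave miRNAs that no longer overlapped between NS and SS. Without NS242, let-7c (455 to 604 CPM in NS, 675 to 1878 CPM in SS), miR-1468 (208 to 357 and 389 to 1897 CPM) and miR-218 (22.3 to 35.46 and 35.54 to 73.3 CPM) did not overlap. Without NS108, miR-2284d did not (0.348 to 9.31 CPM in NS, 0 to 0.226 CPM in SS). Without SS310, miR-196a did not (51.9 to 518 CPM in NS, 0 to 49.1 CPM in SS). For miR-2284d the lowest NS value was 1 count, in NS745. Its 0 counts in SS287, SS294 and SS299 allow up to 2.10, 2.13 and 2.24 CPM, so that miR-2284d cannot be read as separated. These libraries were 3 of the 10 left out in turn, and none of these miRNAs had an unadjusted p under 0.05 with all 10 libraries except miR-2284d. They are few among the 331 tested miRNAs. With so few steers some miRNAs can separate by chance alone, which was not tested.

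The other lists of miRNAs held few differences. The 8 epithelial miRNAs had a median log2 fold change of -0.41 (3 above 0, 5 below), the 6 smooth muscle miRNAs of -0.35 (6 below), the 3 neuroendocrine miRNAs of -0.86 (3 below) and the 4 hindgut miRNAs of -0.43 (1 above, 3 below), with 0 members of these lists at an unadjusted p under 0.05. Without SS287 and SS294 the median of the hindgut list was 0.14, that of the smooth muscle list was -0.01 (3 above 0, 3 below), and all 8 epithelial miRNAs were below 0. The summed epithelial level was 79916 ± 43065 CPM in NS and 111310 ± 115270 CPM in SS, and that of smooth muscle 526050 ± 229940 and 462930 ± 149730 CPM (SD, n = 5 each). Both endothelial, 3 of 5 mesenchymal and 4 of 7 neuronal and glial miRNAs were above 0, with medians of 0.31, 0.20 and 0.07. Without SS299 both endothelial miRNAs were below 0 (median -0.19), as were 3 of 5 mesenchymal ones (median -0.12), and without SS287 and SS294 the neuronal and glial median was -0.37. Under library size alone the endothelial median was -0.21, and that of the miR-30 family was -0.17. The median was 0.24 for 9 members of the let-7 family, 0.15 for 14 of the miR-17-92 and related clusters, 0.11 for 4 of the miR-29 family and 0.02 for 6 of the miR-30 family, with 0 members at an unadjusted p under 0.05. Of these, the miR-17-92 list had a median of -0.24 without SS287 (9 of 14 below 0) and -0.37 without SS287 and SS294 (13 of 14 below), and the miR-29 family one of -0.14 without SS287. The 4 markers of pancreas and liver were not above the CPM minimum, and they summed to at most 4.14 CPM. Of 14 miRNAs that the study names for any region, which were chosen on these animals, 13 were tested and miR-2887 was under the CPM minimum, with 3 at an unadjusted p under 0.05 and higher in SS (miR-451, miR-99a-5p and miR-211) and 2 lower (miR-378b and miR-2284d). MiR-18a, miR-2904 and miR-29d-3p of that list had log2 fold changes of 0.34, 0.04 and 0.15, each smaller than its standard error.

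The miRNAs with the largest spread across the 10 libraries were miR-3604, miR-196b, miR-196a, miR-215 and miR-200a, and in each the lowest library was that of an SS steer. MiR-196a had a log2 fold change of -1.61 (SE 1.09, unadjusted p = 0.167), with SS287, SS294 and SS299 under 6 CPM and SS274 at 49.1 CPM. It was -0.89 without SS287 and SS294, -1.34 without SS299 and -2.63 without SS310 (unadjusted p = 0.0457). MiR-215 ran from 185 CPM in SS299 to 52347 CPM in SS287, both of them SS steers. At the CPM minimum, the tested miRNAs just inside were miR-330, miR-2284ac and miR-2892, whose third-highest CPM in a phenotype was 1.004 to 1.034, and those just outside were miR-7861, miR-2376 and miR-2483-3p, with 0.904 to 0.932.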

How the data were processed

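Small RNA reads were trimmed, filtered on quality and counted per bovine miRNA by the authors with the default settings of sRNAtoolbox, and the deposited values are whole-number counts for each library. The submitters' processing notes add Bowtie and edgeR, with no version. For the counting step, genome build and miRBase release were not given in the sources used here. Of the deposited columns, 0 were left unused.

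From these counts, CPM was computed over the library total. The 331 miRNAs that passed 1 CPM in 3 or more libraries of NS or of SS were fitted over the 10 descending colon libraries. The quasi-likelihood test of edgeR 4.0.16 (R 4.3.3) was used after TMM normalization, with p-values adjusted over the 331 miRNAs by Benjamini-Hochberg and an FDR of 10%. The methods of the study name the exact test of edgeR, which was run as an alternative, as were DESeq2 1.42.0, limma-voom (limma 3.58.1), other scalings and filters, thinned counts and each steer left out. The standard error of a log2 fold change was taken from the test's F value. The tests across miRNAs were run on simulated data. The simulated libraries were independent, with no steer effect and no outlying library, so that run does not cover these features. Single library measures were compared with exact permutation tests. NS and SS are different steers, so steer numbers pair libraries across regions only, as the labels give them. Deviations from the group means correlated by a mean of 0.133 between a descending colon library and the 5 others of its steer (35 of 50 pairs positive) and by -0.0109 between different steers. By steer the mean ran from -0.157 in NS108 (1 of 5 positive) to 0.426 in SS299. In NS108, SS274 (-0.0188, 1 of 5 positive) and SS310 (-7.62e-05) it was below the mean with other steers (0.0309, 0.0173 and 0.0320). The pairing by label was thus not borne out for these libraries. The contrast with the other regions has the steer as a block. All 20 pairs of libraries of a phenotype differed by more than sampling noise. No batch is given in the sources used here. Reads carry no molecular identifiers, so limits cover counting error only.

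The miRNAs named are those of smallest unadjusted p (10 in each direction), the 10 most abundant, the 5 of largest spread, those nearest the CPM minimum, list members with an unadjusted p under 0.05, those the study names, the 5 leading the contrast with other regions, and the extremes of the NS108, SS310 and SS299 libraries. The comparison, lists and rules were chosen with earlier results of these data known.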

Additional observations from a re-analysis of the deposited data

Results flagged for a closer look

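A value was singled out where the highest or lowest of the 5 steers of a phenotype stood apart from the nearest other steer by more than 0.71 of the whole range (Dixon's test, on log2(CPM + 1) for miRNAs). This was so in 7 of 58 groups of 5. Most of the miRNAs in these groups were chosen for a small p in the same libraries, and the groups share their steers. The rate of about 1 in 20 that chance gives for a single group can therefore not be set against this count. NS242 was high for miR-2889 (2.07 CPM) and miR-486 (1306 CPM) among the NS steers, and its share of miR-143 was low (11.7%). SS299 was high for miR-486 among the SS steers (13950 CPM). NS108 was low for miR-100 among the NS steers (808 CPM). The total counts of NS108 (19346766) and SS310 (13942283) were far above those of the other steers of their phenotype. The causes of these values were not tested.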

How the results depend on the processing

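The count of 0 DE miRNAs held under the exact test of edgeR, DESeq2, limma-voom, robust dispersion, other scalings and filters, an FDR of 5%, thinned counts and each of the 10 steers left out in turn (smallest adjusted p 0.186, without NS108). With all 60 libraries in one fit, where the regions share an estimate of the spread, 3 of 331 were called (miR-486, log2 fold change 3.66, miR-451, 2.76, and miR-378b, -3.22). That fit has no steer block, so it treats the libraries of a steer as independent. In the fit of the descending colon alone, miR-486 and miR-451 fell to 0.06 and 0.51 without SS299. The exact test with NS108 left out, chosen after seeing the data, called 2 of 323. The contrast with the other regions called 2 of 331 miRNAs with no replicate block (miR-486 and miR-451), and 0 to 1 of 331 with each steer left out, the 1 being miR-147 without SS310. Of the 331 miRNAs, those that did not overlap numbered 0 to 3 with each steer left out and 2 without NS108 and SS310. In choices made after seeing the data, they numbered 5 without NS242 and SS299 and 1 without NS108 and SS299. The difference in detected miRNAs (SS minus NS) was 2 after thinning and -20 to 3 with each steer left out, and that in total counts was -4463700 to 1079000.

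Some log2 fold changes turned direction. The log2 fold change of miR-2904 was -0.052 by the exact test, -0.23 under library size alone, -0.20 after thinning, -1.40 without NS108 and SS310, -0.011 without NS108 and SS299, -0.26 by the exact test without NS108, and -1.26 to 0.33 with each steer left out. MiR-29d-3p was at -0.68 after thinning, -0.25 without NS242 and SS299, -0.29 without NS108 and SS299, -0.11 by the exact test without NS108, and -0.080 to 0.39 with each steer left out. MiR-18a was at -0.21 by limma-voom, -0.85 without SS287 and SS294, and -0.71 to 0.62 with each steer left out, and miR-409a at -0.63 by limma-voom and -0.13 without NS108 and SS299. MiR-486 was at -0.053 without NS108 and SS299, and miR-211 at -0.23 without SS287 and SS294. With 5 steers a phenotype and a median standard error of 0.47, small differences were not detectable, and miRNAs with few counts in NS242 or the SS libraries of low depth were limited by counting.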
